A study of Arabidopsis thaliana with 4 samples.

Results

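The 60 genes described here had a mean normalized score under a set limit in wild-type (WT) Arabidopsis seedlings and a higher mean in the *aln-1* mutant. They were selected on the comparison itself. A gene was taken if its *aln-1* mean exceeded its WT mean by at least 0.73, if both *aln-1* arrays lay above both WT arrays, and if its WT mean was under 0.17. Genes with a symbol starting with UGT, CYP, BGLU, SCPL, GST or TBL were left out, as were 7 further loci. This removed 8 of the 68 genes that met these limits. Members of those families that have only a locus code were not recognized and could remain. The 60 remaining genes are 0.472% of the 12719 genes that had a named probe set. Because the *aln-1* and WT values chose them, those values are given as a description and no test of them is used as support, and "switched on" is only the short name for this rule.

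The *aln-1* group is a single T-DNA insertion line (SALK_000325) in *ALLANTOINASE* (*ALN*), and the WT group is unmutated Col-0, the background of both. Each group has 2 Affymetrix ATH1 arrays, hybridised with RNA from the aerial parts of seedlings harvested after 2 weeks of sterile growth on half-strength MS medium with 1% sucrose, under 16 h light and 8 h dark. Both groups grew without any treatment, and the study asked how the loss of *ALN* changes basal transcript levels. The deposited values are normalized scores on a log-like scale whose base is not given, so differences are stated in score units and no fold changes are given.

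Allantoinase opens the ring of allantoin, an intermediate in the breakdown of purines, and plants that lack it accumulate allantoin. In Arabidopsis, allantoin has been linked to abscisic acid (ABA), the hormone of water deficit, and to jasmonic acid (JA), the hormone of wounding and of defense against chewing insects and necrotrophic fungi. Many targets of both hormones have very low basal transcript levels in unstressed leaves and are induced when the hormone accumulates.

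*ALN* had scores of -0.0466 and 0.00508 in the *aln-1* arrays, against 0.367 and 0.442 in the WT arrays. The difference was -0.425 (standard error 0.0505), and limma gave an adjusted p of 0.0116, which became 0.0845 when WT replicate 1 was left out and 0.0726 when replicate 2 of WT was. The place of its probes on the disrupted transcript is not known here, which limits the value as a check of the labels. The leaf genes *RCA* (Rubisco activase) and *LHCB4.1* (a light-harvesting protein) had scores of 2.39 to 2.88 over the 4 arrays, while medians over all named genes lay between 0.0550 and 0.0870. Across genes, the correlation of scores within a genotype was 0.980 in *aln-1* and 0.987 in WT, and arrays of different genotypes correlated at 0.899 to 0.944. The labels do not name separate cultures for the 2 replicates of a genotype, so p-values here measure only how far these arrays spread, and that spread may be technical. The arrays sampled whole aerial parts, in which more transcript per cell and more cells of one type cannot be told apart.

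Over the 60 switched-on genes, the difference between *aln-1* and WT ran from 0.73 to 1.69 with a median of 0.934, and the median over all named genes was -0.0332. The *aln-1* means ran from 0.264 to 1.5 (median 0.737), against WT means of -0.604 to 0.163 (median -0.226). A score below 0 was common in WT, where 45 of the 60 genes had a mean below 0 and 40 had both arrays below 0. By limma with Benjamini-Hochberg adjustment over 21754 genes and probe sets, 55 of the 60 passed an adjusted p of 0.05. Of everything tested, 7.42% passed as higher and 8.17% as lower in *aln-1*. Both *aln-1* arrays lay above both WT arrays for 24% of all named genes, and for all 60 by construction. Nothing is read from these counts, since the rule used the same contrast.

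The largest difference belonged to AT1G23960, with scores of 1.29 and 1.23 in *aln-1*, against -0.352 and -0.522 in WT. AT5G45500 had 1.28 in both *aln-1* arrays, against -0.287 and -0.407 in WT. AT4G20480 had 0.920 and 0.934 in *aln-1*, against -0.446 and -0.579 in WT. In these 3 genes the *aln-1* replicates lay close together and the WT replicates lay further apart, and the distance between genotypes was 1.69, 1.63 and 1.44 with standard errors of 0.0701, 0.0560 and 0.0590. AT2G04800 had 0.844 and 0.939 in *aln-1*, against -0.438 and -0.515 in WT. AT2G14460 had 1.16 and 1.22 in *aln-1*, against -0.139 and -0.199 in WT. AT1G16850 had the highest *aln-1* level of the 60, with 1.51 and 1.49 in *aln-1*, against 0.119 and 0.186 in WT. Its WT level was at the upper edge of what the rule admits, and without WT replicate 1 its WT value passed the limit and it was no longer selected. The gene table used here gives none of these 6 loci a name or a function.

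The next 6 genes by difference spread more between replicates. AT1G15010 had 0.602 and 1.23 in *aln-1*, against -0.294 and -0.413 in WT. AT5G04120 had 0.904 and 1.13 in *aln-1*, against -0.322 and -0.0915 in WT. AT5G54300 had 0.659 and 1.1 in *aln-1*, against -0.357 and -0.311 in WT. In each of these 3 genes the higher *aln-1* value was that of replicate 2. *DTX50* (AT5G52050), a MATE-type efflux carrier that exports ABA from cells, had 0.754 and 1.47 in *aln-1*, against -0.194 and 0.0900 in WT. AT2G34930 had 0.879 and 1.31 in *aln-1*, against -0.164 and 0.112 in WT. For AT5G04120, AT5G54300, *DTX50* and AT2G34930, replicate 2 was the higher array in both genotypes. AT4G15390 was tighter and ran the other way in *aln-1*, with 0.965 and 0.862, against -0.272 and -0.227 in WT.

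**Figure D1:**
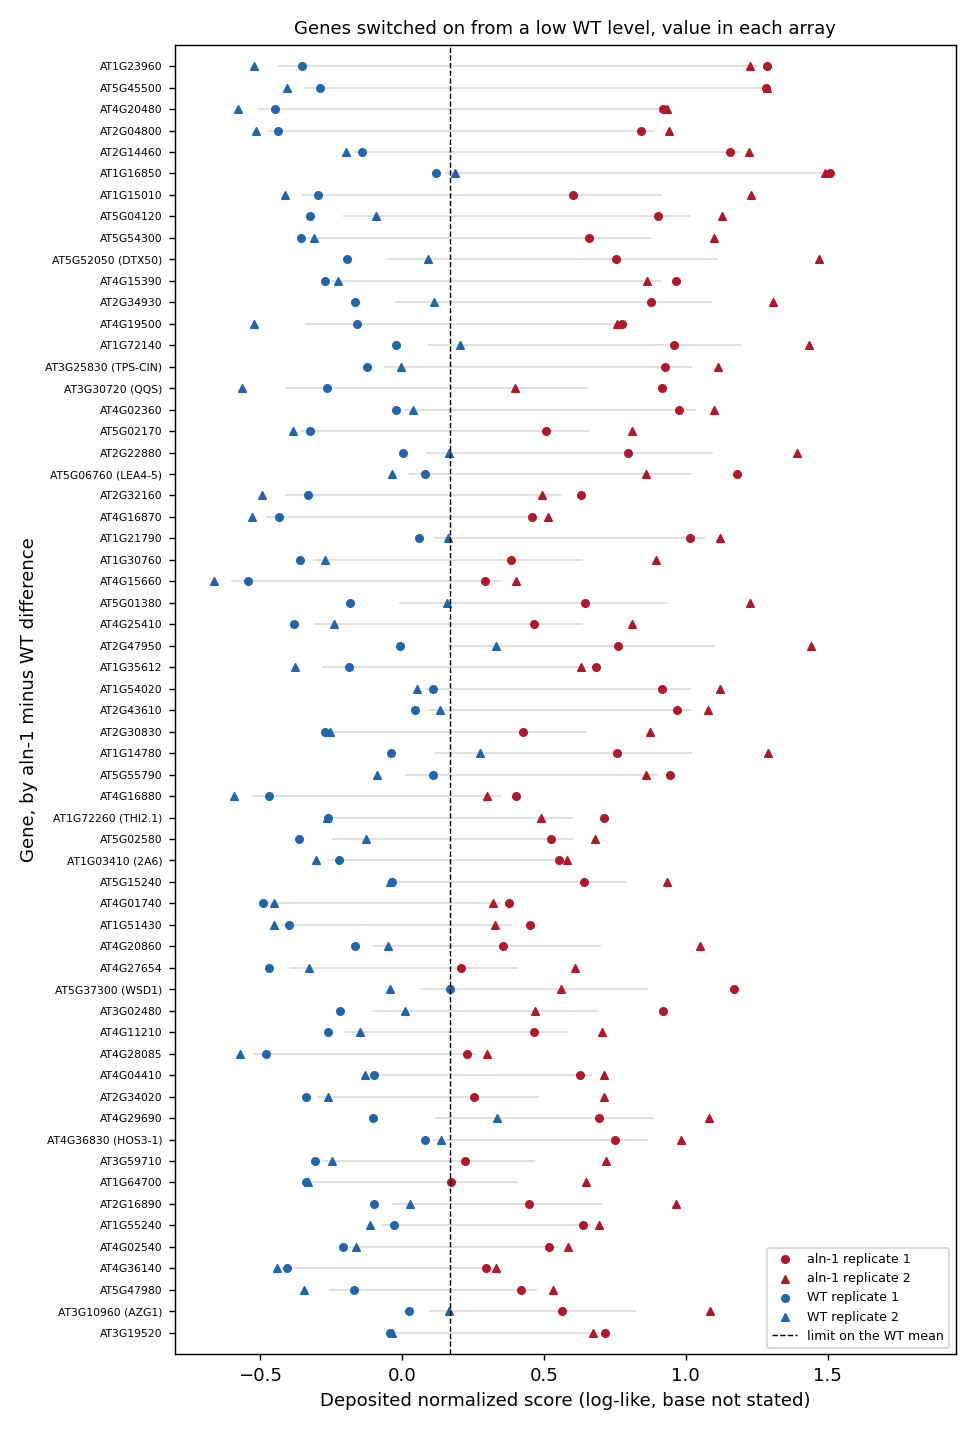
Normalized score (log-like, base not stated) of each of the 60 switched-on genes in each array, ordered from the largest difference at the top, with *aln-1* in red, WT in blue, circles for replicate 1 and triangles for replicate 2. Grey lines join the means of the genotypes and the dashed line is the limit of 0.17 on the WT mean. AT1G23960 at the top differs by 1.69 and AT3G19520 at the bottom by 0.7304, and for many genes the red triangle lies well to the right of the red circle.

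Only 9 of the 60 genes have a gene name in the table used here, and 52 (86.7%) lack a symbol, close to the 88.1% of all named-probe-set genes that lack one. The 9035 other probe sets could not be selected. Few of the well-known genes looked up had a named probe set, 4 of 33 for JA, 5 of 35 for ABA and dehydration and 3 of 10 reference genes. Both shares therefore describe this subset and not all genes on the array. The 9 genes with a name are described by what they encode. *TPS-CIN* encodes a terpene synthase that makes 1,8-cineole, a volatile monoterpene. It had 0.926 and 1.11 in *aln-1*, against -0.125 and -0.00167 in WT, a difference of 1.08 (standard error 0.0818). *QQS* (QUA-QUINE STARCH) is an orphan gene, without recognizable relatives in other plants, that affects starch content. It had 0.915 and 0.398 in *aln-1*, against -0.264 and -0.564 in WT, and was lower in replicate 2 of both genotypes. *2A6* encodes an enzyme of the 2-oxoglutarate- and iron-dependent oxygenase type. It had 0.554 and 0.581 in *aln-1*, against -0.220 and -0.302 in WT.

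*2A6* was the one gene of the 60 with another single-gene probe set. That probe set had -0.0390 and -0.0883 in *aln-1*, against -0.308 and -0.377 in WT, a difference of 0.279. The arrays were again separated, by less than the 0.829 measured on the probe set used, and if the probe sets were averaged the gene no longer met the rule.

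*WSD1* and *HOS3-1* belong to lipid synthesis. *WSD1* encodes the wax ester synthase of stem wax, and *HOS3-1* belongs to the ELO-type fatty acid elongases. *WSD1* had 1.17 and 0.560 in *aln-1*, against 0.168 and -0.0410 in WT. *HOS3-1* had 0.750 and 0.982 in *aln-1*, against 0.0801 and 0.137 in WT. *WSD1* thus had its high array in *aln-1* replicate 1 and *HOS3-1* in *aln-1* replicate 2, and the lower *aln-1* array of *WSD1* exceeded its higher WT array by only 0.393.

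*AZG1* encodes a transporter that takes up the purines adenine and guanine. It had 0.564 and 1.09 in *aln-1*, against 0.0232 and 0.166 in WT. The difference of 0.731 put it barely inside the rule, and the gap between its *aln-1* arrays was 0.523.

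*LEA4-5* encodes a late embryogenesis abundant protein of tissues that lose water, and is a classical ABA and dehydration gene. It had 1.18 and 0.861 in *aln-1*, against 0.0823 and -0.0359 in WT, a difference of 0.998 (standard error 0.115). Of the 35 ABA and dehydration genes looked up, 5 had a named probe set, and *LEA4-5* was the only one of these among the 60. The other 4 were not selected, and all were higher in *aln-1* by limma, against 7.42% of everything tested. *LTI30* and *COR15A* met the limits on the difference and on separated arrays. They were left out only by their WT means of 1.64 and 1.75. All 4 share the contrast that selected the 60, so their values are a description too. *LTI30*, a dehydrin, had 2.69 and 2.84 in *aln-1*, against 1.46 and 1.82 in WT (adjusted p = 0.0109). The chloroplast protectant *COR15A* had 2.61 in both *aln-1* arrays, against 1.78 and 1.72 in WT (adjusted p = 0.00270). Its tandem partner *COR15B* had 2.55 and 2.51 in *aln-1*, against 1.77 and 1.83 in WT (adjusted p = 0.00406). The dehydrin *COR47* had 2.69 and 2.76 in *aln-1*, against 2.00 and 2.17 in WT (adjusted p = 0.0101). These 4 genes stood far above the array medians in WT already, unlike *LEA4-5*. Their median difference was 0.793, against -0.0320 over everything tested. Without WT replicate 1 only *COR15A* passed, and the adjusted p-values of *LTI30*, *COR15B* and *COR47* were 0.0545, 0.0529 and 0.0712.

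*THI2.1* encodes a thionin, a small antimicrobial peptide that is induced through JA. It had 0.713 and 0.491 in *aln-1*, against -0.262 and -0.263 in WT, a difference of 0.864 (standard error 0.0811). Of the 33 JA genes looked up, 4 had a named probe set, and *THI2.1* was the only one of these among the 60. From the same arrays, the paper reports increased basal expression in the mutant for most JA metabolism and signaling genes that it mapped. It also reports higher transcript of selected genes, *MYC2* among them, by RT-qPCR on other RNA samples, and raised JA and JA-Ile. Listed JA or ABA genes without a named probe set may still be among the 9035 other probe sets, so the values here do not cover them. *OPCL1*, a peroxisomal ligase of JA synthesis, was higher in *aln-1*, with 1.53 and 1.64 in *aln-1*, against 1.24 and 1.27 in WT (adjusted p = 0.0234 by limma). *MYC3* and *MYC4*, transcription factors of the JA response, differed by 0.112 and -0.0537, with adjusted p-values of 0.152 and 0.593. *OPCL1* did not pass when *aln-1* replicate 2 was left out (adjusted p = 0.0535), nor when either WT array was (0.160 and 0.111).

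Ranks within an array show what a low WT level means here. In WT replicates 1 and 2, the median switched-on gene exceeded 27.4% and 33.9% of the named genes, and in *aln-1* replicates 1 and 2 it exceeded 80.4% and 86.5%. The lowest in WT were at 1.49% and 0.700%, and the highest at 54.9% and 63.9%. Thus 11 of the 60 had a WT mean above the WT median of all named genes, and only 6 were in the lowest 10% of both WT arrays and 18 in the lowest 25%. In *aln-1*, 35 genes were above 75% of the named genes in both arrays and 5 were above 90%. The deposited data hold no detection calls, so whether a gene was silent in WT cannot be said, and the word low holds best for these 18 genes.

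**Figure D2:**
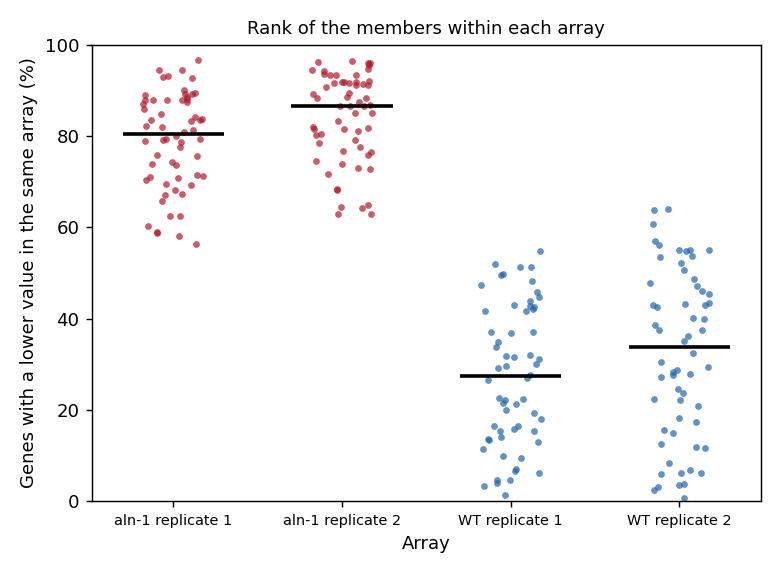
Rank of each of the 60 switched-on genes within each array, as the percentage of named genes with a lower score (points, spread sideways at random), with the median as a black bar. The medians are 80.4% and 86.5% in the *aln-1* arrays and 27.4% and 33.9% in the WT arrays, and the highest rank is 54.9% in WT replicate 1 and 63.9% in WT replicate 2, of which only the value in WT replicate 2 reaches into the range of the *aln-1* arrays.

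The lowest WT means were those of AT4G15660, AT4G16880, AT4G28085, AT4G20480, AT4G16870, AT2G04800, AT4G01740 and AT1G23960, of which 6 lie on chromosome 4. AT4G15660 had 0.292 and 0.403 in *aln-1*, against -0.543 and -0.664 in WT. AT4G16880 had 0.40 and 0.298 in *aln-1*, against -0.467 and -0.590 in WT. AT4G28085 had 0.229 and 0.299 in *aln-1*, against -0.480 and -0.571 in WT. These genes stood at a moderate level in *aln-1*, well below that of AT1G16850, and near the bottom of the WT arrays. AT4G16870 had 0.458 and 0.515 in *aln-1*, against -0.434 and -0.527 in WT. AT4G01740 had 0.377 and 0.321 in *aln-1*, against -0.491 and -0.450 in WT.

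At the other end, the highest *aln-1* means after AT1G16850, AT5G45500 and AT1G23960 were those of AT1G72140, AT2G14460, *DTX50*, AT2G47950 and AT2G22880. AT1G72140 had 0.957 and 1.43 in *aln-1*, against -0.0217 and 0.205 in WT. AT2G47950 had 0.761 and 1.44 in *aln-1*, against -0.00667 and 0.332 in WT. AT2G22880 had 0.796 and 1.39 in *aln-1*, against 0.00313 and 0.166 in WT. In all 3, replicate 2 was the higher array in both genotypes.

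The limits of the rule cut through a continuous range. Just inside the limit on the difference were AT3G19520 with 0.7304, *AZG1* with 0.7307 and AT5G47980 with 0.7337. Just outside were the calmodulin-like gene *CML38* with 0.726, AT5G48110 with 0.721 and AT1G10585 with 0.720. Just inside the limit on the WT mean were AT2G47950 with 0.163, AT1G16850 with 0.152 and AT1G14780 with 0.117. Just outside were AT4G28290 with 0.172, AT5G19110 with 0.173 and the expansin-like gene *EXLA1* with 0.195. The narrowest separation of the arrays was 0.361 in AT4G29690. Raising the limit on the difference to 1 left 19 genes, and dropping the limit on the WT mean gave 112.

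Replicates of one genotype differed more in the switched-on genes than in genes at large. The median size of the gap between replicates was 0.213 in *aln-1* and 0.116 in WT, against 0.0606 and 0.0518 over all named genes. Replicate 2 was the higher *aln-1* array in 44 of the 60 genes (73.3%, and 51.5% of all named genes). Replicate 2 was the higher WT array in 33 (55%, and 39.6% of all named genes). Across the 60 genes, the gap in *aln-1* and the gap in WT had a Pearson correlation of 0.608 and a Spearman correlation of 0.656, while over all 12719 named genes these were 0.0417 and -0.0551. The 52 genes with a difference of at least 0.73 and separated arrays but a WT mean at or above 0.17 gave 0.589 and 0.491. The 63 genes lower in *aln-1* by at least 0.73 with separated arrays gave 0.175 and 0.182. Wide gaps and a higher replicate 2 were not particular to the 60. In the 52 genes the median gaps were 0.207 in *aln-1* and 0.178 in WT, with replicate 2 the higher in 88.5% and 80.8%. In the 63 lower genes the gaps were 0.0865 and 0.112, with replicate 2 the higher in 41.3% and 31.7%. Genes are not independent replicates, all points share the same 4 arrays, so this is a description only.

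The genes fell along a range from tight to wide replicates. In 20 of the 60 the *aln-1* arrays were more than 0.4 apart, with *aln-1* replicate 2 the higher in 17 of them and both second replicates the higher in 16. AT1G64700 was one, with 0.173 and 0.647 in *aln-1*, against -0.337 and -0.329 in WT. AT4G20860 was another, with 0.355 and 1.05 in *aln-1*, against -0.164 and -0.0506 in WT. The 3 wide genes with the higher value in *aln-1* replicate 1 were *WSD1*, *QQS* and AT3G02480. AT3G02480 had 0.918 and 0.469 in *aln-1*, against -0.217 and 0.00894 in WT, so that its replicates were ordered differently in the genotypes. In 27 genes the *aln-1* arrays were less than 0.15 apart, among them AT3G19520 with 0.715 and 0.672 in *aln-1*, against -0.0404 and -0.0336 in WT. The wide and the tight genes had like median differences, 0.926 and 0.938, and median WT means of -0.0779 and -0.282. Replicate 2 was the higher WT array in 17 of the 20 wide genes and in 8 of the 27 tight ones. What the gaps share was not tested.

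**Figure D3:**
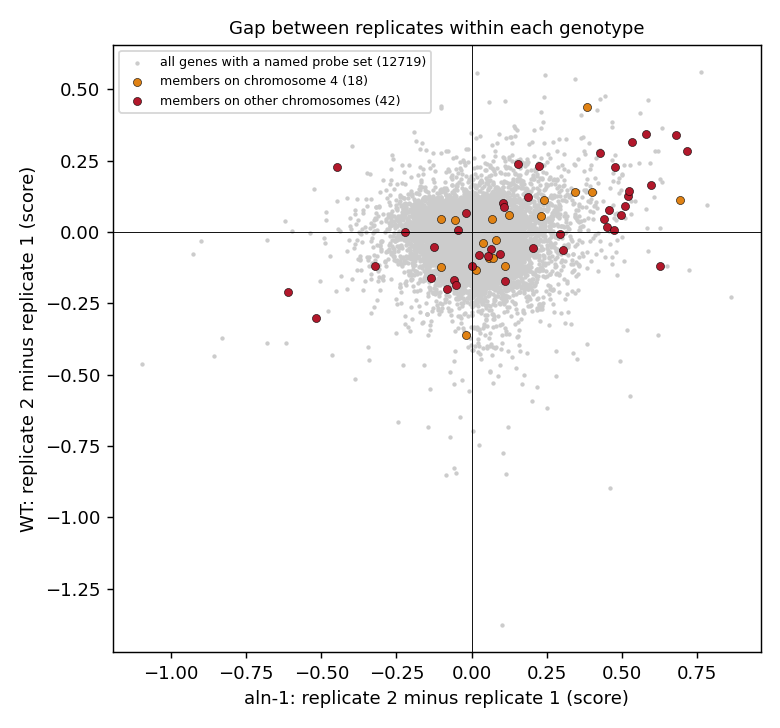
Gap between replicates (replicate 2 minus replicate 1, in score units) in *aln-1* on the x axis and in WT on the y axis, with all 12719 named genes in grey and the 60 switched-on genes coloured, orange for chromosome 4 and red for the others. The coloured points run from the lower left to the upper right (Pearson correlation 0.608), while the grey cloud has 0.0417.

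When each array was left out in turn, 33 of the 60 genes stayed within the rule every time. Without *aln-1* replicate 2, 21 genes dropped out, and without WT replicate 1, 13 did. Without *aln-1* replicate 1 and without WT replicate 2, 3 and 4 dropped out. Of the 12 genes with the largest difference, only AT1G16850 dropped out in any of these.

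Position on the chromosomes played no part in the selection. By their locus codes, 14 of the 60 genes lie on chromosome 1, 10 on chromosome 2, 6 on chromosome 3, 18 on chromosome 4 and 12 on chromosome 5. Chromosome 4 thus held 30% of the switched-on genes and 14.6% of the 12630 nuclear named genes. Of the 52 genes with as large a difference from a higher WT level, 9 (17.3%) lie on chromosome 4, and of the 62 nuclear genes that were lower in *aln-1* by as much, 10 (16.1%) do. With each array left out in turn the rule selected between 11 and 23 genes on chromosome 4, a share between 23.9% and 29.6%. The share was not tested.

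**Figure D4:**
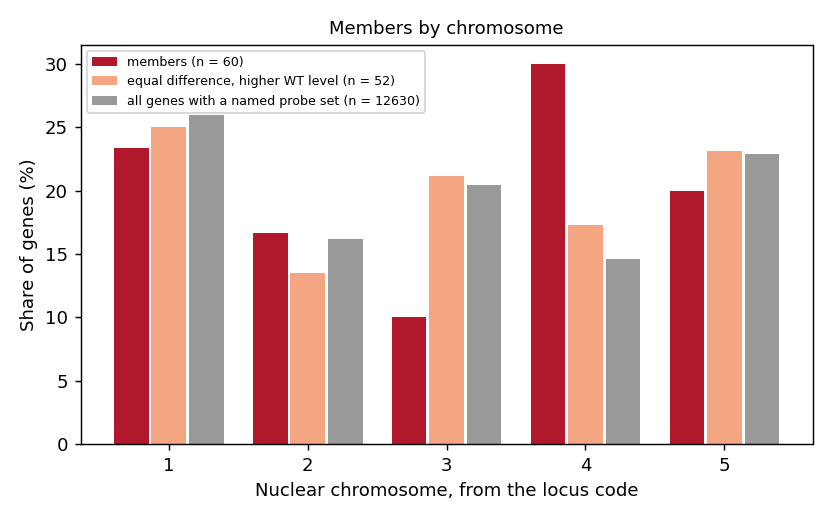
Share of genes on each nuclear chromosome, in percent, for the 60 switched-on genes (red), the 52 genes with as large a difference from a WT mean at or above 0.17 (light red) and all 12630 nuclear named genes (grey). Chromosome 4 holds 30% of the switched-on genes, 17.3% of the genes from a higher WT level and 14.6% of all.

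*ALN* itself lies on chromosome 4, so the order of genes around it was looked up in the RefSeq table of assembly TAIR10.1. The nearest switched-on gene, the pseudogene AT4G04410, has 55 protein-coding genes between it and *ALN*. It had 0.629 and 0.711 in *aln-1*, against -0.0996 and -0.129 in WT. Of the 18 genes on the chromosome, 4 come before *ALN* and 14 after it, and the farthest, *HOS3-1*, is separated from it by 3303 protein-coding genes. How all named genes of the chromosome divide around *ALN* was not counted, so nothing is read from 4 and 14. In *aln-1* the median gap between replicates was 0.102 in the 18 genes, against 0.298 in the 42 genes on the other chromosomes, and in WT these were 0.103 and 0.119. On the *aln-1* gap, 12 of the 27 tight genes but only 1 of the 20 wide ones lie on chromosome 4. The Pearson correlation of the gaps was 0.612 in the 18 genes and 0.620 in the other 42. How much of chromosome 4 differs between the insertion line and the WT plants in anything but *ALN* was not tested.

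The switched-on genes, all from genes with a named probe set, were scattered. The closest pair was AT4G16870 and AT4G16880, with 1 annotated gene between them, and both were among the lowest in WT. The next closest, AT1G72140 and *THI2.1*, have 13 annotated genes between them. AT4G16870, AT4G04410 and AT1G35612 are annotated as pseudogenes, which is 5% of the 60 and 5.53% of all named genes. AT1G35612 had 0.682 and 0.630 in *aln-1*, against -0.188 and -0.376 in WT. All 60 genes were measured on probe sets of the class designed for a single transcript, while 1.71% of the named genes were measured on a class that can detect several.

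The genes next to the switched-on genes were chosen by position, which the rule did not use. Of the 119 nearest protein-coding genes on either side, 61 had a named probe set, and none of these 61 was itself switched on. The rule could not select the others. By limma, 9 (14.8%) were higher in *aln-1* and 6 (9.84%) were lower, against 7.42% and 8.17% of everything tested, and 46 passed in neither direction. Their median difference was 0.00710, against -0.0320 over everything tested. Both *aln-1* arrays lay above both WT arrays in 23 of the 61. This is a larger share than the 24% among all named genes (3058 of 12719), and the excess was not tested. Without WT replicate 1 no neighbour passed in either direction, and without WT replicate 2, 1 passed in each.

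Among the neighbours that rose, AT2G32150 had 1.92 and 2.096 in *aln-1*, against 1.24 and 1.34 in WT, a difference of 0.719 (adjusted p = 0.00954). It lies next to AT2G32160, which had 0.630 and 0.495 in *aln-1*, against -0.332 and -0.492 in WT. *CcdA* (AT5G54290), a thylakoid membrane protein of thiol transfer, lies next to AT5G54300. It had 0.985 and 0.913 in *aln-1*, against 0.341 and 0.296 in WT (adjusted p = 0.00582). AT4G29700, next to AT4G29690, differed by 0.640 (adjusted p = 0.0431). The neighbour with the highest difference, AT2G16900 with 0.728, did not pass (adjusted p = 0.0685), and its *aln-1* arrays were at 1.08 and 1.71. In the opposite direction, AT3G10950 beside *AZG1* had -0.799 and -0.753 in *aln-1*, against -0.165 and -0.143 in WT, a difference of -0.622 (adjusted p = 0.00504). AT4G28080 beside AT4G28085 had 0.942 and 0.831 in *aln-1*, against 1.39 and 1.33 in WT. A switched-on gene could thus stand next to a gene that fell, next to one that rose or, most often, next to one that passed in neither direction.

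**Figure D5:**
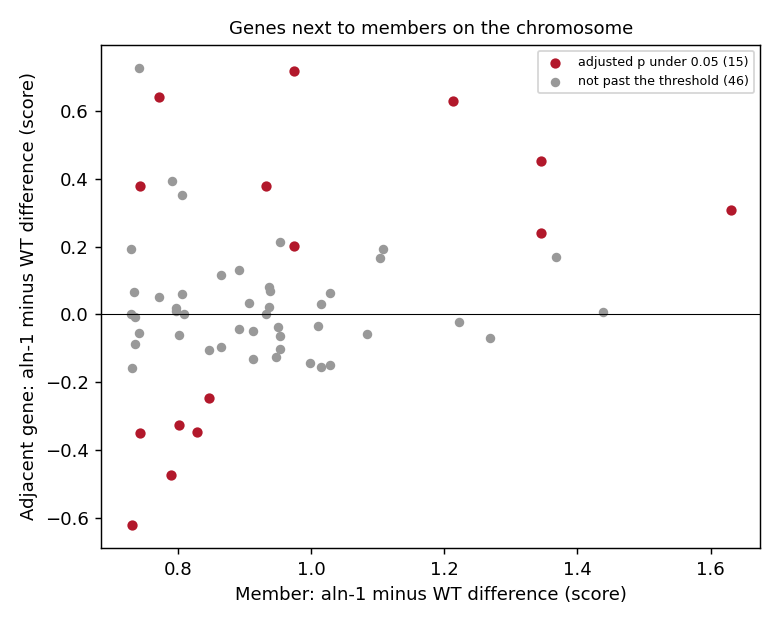
Difference between *aln-1* and WT (score units) of the 61 measured protein-coding genes next to a switched-on gene (y axis) against the difference of the switched-on gene itself (x axis), with the 15 neighbours that passed an adjusted p of 0.05 from limma in red and the 46 others in grey. The neighbours spread from -0.622 to 0.728 around a median of 0.00710, while all switched-on genes lie at 0.73 or more by selection.

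Markers of other tissues were few on the named probe sets, and only genes with such a probe set are called measured here. Genes without one may still be among the 9035 other probe sets. Of 25 root genes looked up, 2 were measured, both of them expansins of root hairs. *EXPA7* had -0.104 and 0.00141 in *aln-1*, against -0.277 and -0.324 in WT, a difference of 0.250 (adjusted p = 0.0431 by limma). *EXPA18* had 0.0441 and 0.196 in *aln-1*, against -0.180 and -0.0521 in WT (adjusted p = 0.0918). The summed score of both was -0.0596 to 0.197 in *aln-1* and -0.457 to -0.376 in WT, so the sum was higher in *aln-1* while only *EXPA7* passed. Scores are log-like, so the sums given here are no total amount of transcript. *EXPA7* and *EXPA18* exceeded at most 46.6% and 57.6% of the named genes in any array. The part of these genes in the result was not tested. *EXPA7* did not pass when *aln-1* replicate 2 (adjusted p = 0.108) or either WT array (0.183 and 0.187) was left out. Of 20 leaf photosynthesis genes, 2 were measured, and *RCA* was lower in *aln-1*, with 2.52 and 2.39 in *aln-1*, against 2.77 and 2.72 in WT (adjusted p = 0.0390). *RCA* did not pass when *aln-1* replicate 2 (0.0867) or either WT array (0.213 and 0.142) was left out. *LHCB4.1* differed by -0.164 (adjusted p = 0.118). The summed score of both was 5.01 to 5.25 in *aln-1* and 5.52 to 5.65 in WT. *PAP85*, the one measured gene of 18 seed genes, was below 0 in all 4 arrays, and neither of the 2 measured of 19 flower and pollen genes (*A9* and *AMS*) nor the 3 of 10 reference genes passed. The summed flower and pollen score was -0.660 to -0.652 in *aln-1* and -0.875 to -0.258 in WT.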

How the data were processed

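Seedling shoots were profiled at 2 weeks on 4 ATH1 arrays. The deposited scores, 1 for each probe set and array, are earlier array data that the authors scaled again with SuperNORM, a service based on a lognormal model with 3 parameters. The log base and the background step were not given. Deposited p-values come from the authors' two-way ANOVA (genotype and interaction, second factor unnamed) and were not used. Of 22810 probe sets, 64 controls and 842 without values were left out. Probe sets were named through the platform annotation and the RefSeq table of TAIR10.1, and for each gene the probe set with the highest mean was used. The test was limma (version 3.58.1, R 4.3.3; lmFit, then eBayes) on genotype alone, with Benjamini-Hochberg adjustment over 12719 genes and 9035 other probe sets and a threshold of 0.05. Standard errors are those of this fit. The fit and the rule were tested on simulated data.

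The genes, the lists and the rule were chosen with earlier results of these data known. Values are given for the 12 genes with the largest difference, the 8 with the lowest WT mean, the 8 with the highest *aln-1* mean, those at each limit, and those with a gene name. Further genes were picked after their values were seen, as examples of wide and tight replicates and of pseudogenes and neighbours. Family prefixes were matched without regard to case. Precision is limited by having 2 arrays for each genotype. Alternatives were other scalings, probe set choices, limits, filters, a replicate block and leaving out each array. No per-sample column was left unused.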

Additional observations from a re-analysis of the deposited data

How the results depend on the processing

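The number of switched-on genes was 60, and 19 with a difference of at least 1 and 112 without the limit on the WT mean. With each array left out in turn it lay between 46 and 93, and the number on chromosome 4 between 11 and 23. Under quantile normalization, centring on array medians, averaged probe sets, a WT mean under 0, kept families or prefixes matched by case it stayed between 45 and 74. All 60 were again selected under quantile normalization (of 69) and centring (of 74). Genes and probe sets higher in *aln-1* by limma numbered 1615 and lower ones 1778. With each array left out the ranges were 71 to 2114 and 61 to 2372, and with centring the counts were 1843 and 1511, so that the direction with more genes turned. Neighbours of switched-on genes numbered 9 higher and 6 lower, with ranges of 0 to 9 and 0 to 7 when arrays were left out, and 14 higher under quantile normalization.

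With the replicate number as a block, 1918 were higher and 1854 lower. Deviations of same-numbered arrays correlated at 0.0417 over named genes and at 0.608 over the 60 switched-on genes. The labels do not say what a number marks, and whether the numbers pair the arrays was not settled. In the block, *EXPA7* did not pass (adjusted p = 0.0508) and *EXPA18* did (0.0394). The counts for the lists were the same under quantile normalization and the block. Promoter motifs and protein families were not analysed here. With 2 arrays for each genotype, single outlying arrays cannot be recognized, and low scores have no detection calls.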
